A study of Mus musculus with 20 samples.

Results

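The effect of age on gene expression was followed in the aorta of wild-type (WT) mice, with all gene rows that the authors called changed between WT aged and WT young aorta. There were 1728 such genes of 14374 tested, among 3696 genes called in at least 1 of 3 comparisons of the series. WT aged mice were female and 72 to 78 weeks old, and WT young mice were female and 12 to 15 weeks old. A genotype labelled Nckx4-/- and described as a knockdown of Slc24a4 (KO) was sampled at the same ages, as KO aged and KO young. Slc24a4 encodes NCKX4, an exchanger that moves calcium out of the cell. Each of the 4 groups had 5 libraries, 20 in all, and each library pooled cleaned aortic tissue of 2 mice, so that the spread between libraries is a spread between pools. The sources used here do not give background strain, aortic segment or treatment.

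Values per library were not used here, since the tables hold 1 row a gene, and library depth is therefore unknown. For each gene the authors' deposited table gives a log2 fold change, its standard error (SE), an adjusted p and the mean normalized count over both groups. A positive fold change means higher in WT aged aorta. The group levels given below as "about" are the means of WT aged and WT young libraries that follow from that mean and that fold change. They are normalized counts, rest on a fold change shrunken towards 0, and are compared only within a gene, because counts also grow with transcript length. Every gene described as having risen or fallen has an adjusted p under 0.05 in the authors' deposited table. The table does not name tested genes that missed the threshold, and their values were not analysed here.

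The aortic wall is built by smooth muscle cells between elastic sheets, with an endothelial lining inside and fibroblasts in the adventitia outside. Its cells lay down most collagen and elastin early in life, and a stiffer wall with altered matrix is a known feature of vascular ageing. Bone morphogenetic proteins (BMPs) and TGF-beta bind paired receptor kinases that phosphorylate SMAD proteins, which enter the nucleus and switch on target genes such as the Id genes and the inhibitory SMADs. Bulk tissue RNA was measured, so fewer cells of a type and less RNA per cell cannot be told apart in any result.

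More genes fell than rose with age, but the larger changes were increases. Of the 1728 genes, 756 were higher and 972 lower in WT aged aorta, the lower share being 56.25%. The background share of tested genes called in either direction was 12.0%, of which 5.26% were called higher and 6.76% called lower. The median log2 fold change in the authors' deposited table was 0.46 over the higher genes (interquartile range 0.32 to 0.72) and −0.35 over the lower genes (−0.55 to −0.26), and −0.21 over all called genes. The higher genes had a median mean normalized count of 577 and a median SE of 0.15, and the lower genes 1997 and 0.10, from the same deposited table of the authors. The higher genes thus sat at lower counts, with wider SEs. Taking only genes whose absolute log2 fold change reached 1, 114 were higher and 65 lower.

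**Figure D1:**
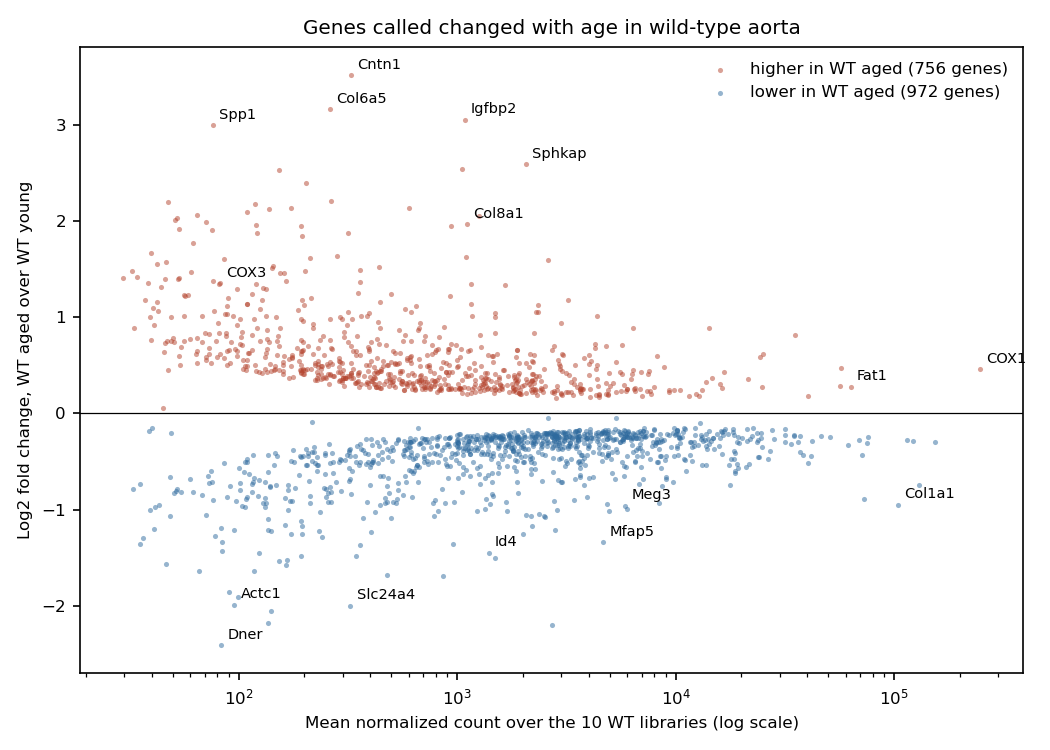
Log2 fold change of WT aged over WT young aorta (vertical axis) against the mean normalized count over the 10 WT libraries (horizontal axis, log scale), 1 point for each of the 756 higher and 972 lower genes of the authors' deposited table. Points above a log2 fold change of 2 sit at low to middle counts, while the collagen gene Col1a1 at −0.95 sits near the right edge.

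The largest increases were in genes of several kinds. Cntn1, a contactin of axonal membranes, had about 603 in WT aged and about 52.6 in WT young, in normalized counts, a log2 fold change of 3.52 (SE 0.25) in the authors' deposited table. Col6a5, a chain of the microfibril-forming collagen VI, had about 472 in WT aged and about 52.5 in WT young, at 3.17 (SE 0.92) in the authors' deposited table. Igfbp2, which binds insulin-like growth factors, had about 1929.8 in WT aged and about 231 in WT young in the authors' deposited table, at 3.06 (SE 0.51). These 3 genes differed several-fold between the groups, and the SE of Col6a5 was the widest of them. Spp1, the gene of osteopontin, had about 136 in WT aged and about 16.9 in WT young, at 3.00 (SE 0.32) in the authors' deposited table. Sphkap, an anchor protein for protein kinase A that also binds sphingosine kinase, had the smallest adjusted p of all genes in the authors' deposited table (9.46e-61), with about 3555 in WT aged and about 586 in WT young. Nfasc, an adhesion molecule of the axon's initial segment, was at 2.55 (SE 0.30) in the authors' deposited table. The long non-coding RNA gene Gm12381 was at 2.54 (SE 0.72), Nkain2, a partner of the sodium pump, at 2.40 (SE 0.21), the kinase gene Tnni3k at 2.21 (SE 0.16) and Oxtr, the oxytocin receptor gene, at 2.18 (SE 0.70) in the authors' deposited table. Ano4, of the anoctamin family of channels and lipid scramblases, and Ptchd4, a patched-related p53 target, were both at 2.14 in the authors' deposited table (SE 0.60 and 0.30).

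The largest decreases joined a Notch ligand, a stress-induced transcription factor and a calcium exchanger. Dner, a non-canonical ligand of Notch, had about 26.4 in WT aged and about 140.4 in WT young, a log2 fold change of −2.41 (SE 0.45) in the authors' deposited table. The transcription factor gene Atf3, which stress induces, was at −2.20 (SE 0.76) in the authors' deposited table. Atf3 was among the strongly shrunken genes, whose fold change divided by its SE is under 0.7 of what the p-value implies, as were Col6a5 and Kcnc4. Of all called genes 198 were strongly shrunken. Among genes described below they include Wnt5b, Sfrp4, Elovl6, Avpr1a, Nlgn1, Il33, Fkbp5, Mpeg1 and Bmper, but not every such gene is marked in the text. Slc24a4 itself had about 129.9 in WT aged and about 519.6 in WT young, a log2 fold change of −2.00 (SE 0.46) in the authors' deposited table (adjusted p = 1.4e-05), and was not listed in KO ageing. Actc1, the cardiac alpha-actin gene, had about 38.5 in WT aged and about 153 in WT young in the authors' deposited table, at −1.99 (SE 0.40). Tmem26 was at −2.06 (SE 0.29), the mucin-type glycosyltransferase gene Galnt6 at −1.91 (SE 0.41) and Rimklb, an enzyme that makes N-acetylaspartylglutamate, at −1.86 (SE 0.31) in the authors' deposited table. The potassium channel gene Kcnc4 was at −1.69 (SE 0.79), the amyloid precursor-like gene Aplp1 at −1.68 (SE 0.15), the metalloprotease gene Adamts17 at −1.64 (SE 0.36) and the cartilage protein gene Cilp2 at −1.64 (SE 0.30) in the authors' deposited table.

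The genes with the smallest adjusted p were not always those of largest change. Among the increases, besides Sphkap, Cntn1, Tnni3k and Nkain2, these included Col8a1, Sema3e, Ndnf, C4b and Adamts8. Ndnf, a secreted neurovascular factor, had about 1666 in WT aged and about 538 in WT young in the authors' deposited table, at 1.63 (SE 0.14). Among the decreases they were Id4, Mfap5, Meg3, Aplp1, Pcolce2, Dchs1, Tram2, Actg2, Ptprf and Ccdc88c. Tram2, which is known to help collagen I synthesis at the endoplasmic reticulum, had about 2282 in WT aged and about 3732 in WT young in the authors' deposited table, at −0.71 (SE 0.07). The receptor phosphatase gene Ptprf was at −1.02 (SE 0.11) and Ccdc88c, a regulator of Wnt and G protein signalling, at −1.08 (SE 0.12) in the authors' deposited table. Just inside the threshold stood Septin4 at 0.31, Adissp at 0.27 and Eif3h, a translation initiation subunit, at −0.19 in the authors' deposited table, with adjusted p values of 0.0494, 0.0494 and 0.0494. The values just outside the threshold were not analysed here.

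Among gene lists, BMP and TGF-beta transducers and target genes were lower wherever they were called. 14 of 32 genes of that list were called and all 14 were lower in WT aged aorta, a share to set beside the 6.76% of tested genes called lower, with a median log2 fold change of −0.705. Id proteins bind other helix-loop-helix factors and keep them off DNA. Id2 had about 779.6 in WT aged and about 2205 in WT young, a log2 fold change of −1.50 (SE 0.25) in the authors' deposited table. Id4 had about 749 in WT aged and about 2045 in WT young in the authors' deposited table, at −1.45 (SE 0.11) (adjusted p = 2.35e-34). Id1 was at −0.67 (SE 0.20) and Id3 at −0.47 (SE 0.12) in the authors' deposited table, so that each of the 4 Id genes was called and lower. Smad6 and Smad7, the inhibitory SMADs that BMP and TGF-beta signals induce as brakes, fell too. Smad6 had about 1605 in WT aged and about 3369 in WT young in the authors' deposited table, at −1.07 (SE 0.22), and Smad7 had about 2843 in WT aged and about 4748 in WT young, at −0.74 (SE 0.09). Smad9, a receptor-regulated SMAD of the BMP branch, was at −0.94 (SE 0.13), and Atoh8, a helix-loop-helix factor induced by BMP9 in endothelium, at −1.02 (SE 0.12) in the authors' deposited table. The Notch and BMP effector genes Hey1 and Heyl were at −0.86 (SE 0.29) and −0.30 (SE 0.13) in the authors' deposited table. Tgfbi, a TGF-beta-induced matrix protein gene, was at −0.44 (SE 0.11), the feedback gene Pmepa1 at −0.43 (SE 0.07) and the SMAD corepressor genes Ski and Skil both at −0.33 in the authors' deposited table.

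Stretches of promoter are shown for 3 of these genes because they hold a GC element, GGCGCC, that SMAD proteins of the BMP branch are known to bind. The sequences are those of RefSeq on the build GRCm38.p6, read 5′ to 3′ on the gene's strand upstream of its annotated start, and the capitals mark the element.
Id2, chr12:25096278-25096342, minus strand: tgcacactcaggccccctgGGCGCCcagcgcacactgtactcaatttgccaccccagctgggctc
Id4, chr13:48260928-48261013, plus strand: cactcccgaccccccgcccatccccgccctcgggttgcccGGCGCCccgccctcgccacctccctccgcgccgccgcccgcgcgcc
Smad9, chr3:54755491-54755576, plus strand: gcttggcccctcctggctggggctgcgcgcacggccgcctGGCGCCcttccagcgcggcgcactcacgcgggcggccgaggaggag
The windows searched ran from 250 bases before to 50 bases after each annotated start, on both strands, the element being its own reverse complement. Of the 14 lower genes of the list, 8 had a window, and 5 of the 8 held GGCGCC, namely Id2, Id4, Smad9, Ski and Tgfbi. It was also in 7 of the 13 windows of lower immediate early genes (53.8%). The element was in 11.9% of all 32851 windows, in 18.9% of the windows of higher genes and in 22.6% of those of lower genes. The palindromic SMAD element GTCTAGAC was in the window of Smad6, against 0.213% of all windows. A match shows only that these letters are there.

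The ligands, receptors and antagonists of the same pathway moved in both directions. 16 of 45 were called, 5 higher and 11 lower, with a median log2 fold change of −0.24 that turned to 0.595 among members past 0.5 in either direction. Among ligands, Bmp2 rose, with about 637 in WT aged and about 441 in WT young in the authors' deposited table, at 0.53 (SE 0.16). Bmp4 fell, with about 500.0 in WT aged and about 651 in WT young in the authors' deposited table, at −0.38 (SE 0.14). Inhbb, the activin B subunit gene, was at 0.80 (SE 0.20) and the BMP3-related gene Gdf10 at −0.35 (SE 0.07) in the authors' deposited table. Every called receptor gene was lower. The type I receptor genes Bmpr1a, Bmpr1b and Acvr1 were at −0.24, −0.44 and −0.43, and the co-receptor genes Eng and Tgfbr3 at −0.24 and −0.22 in the authors' deposited table. Modulators split, with Chrdl1 at 0.66, Crim1 at 0.48 and Bmper at 0.45 above, and the decoy receptor gene Bambi at −0.60, Fstl1 at −0.44, Sost at −0.43 and Twsg1 at −0.21 below in the authors' deposited table.

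The hedgehog genes called lower included a ligand, receptors and targets. In this pathway a ligand binds Ptch1 and frees a signal to the Gli factors, and Gli1, Ptch1 and Hhip are themselves target genes. 8 of 27 hedgehog and retinoid genes were called, 7 lower and 1 higher, with a median of −0.58 (0.315 among members past 1 in either direction). The ligand gene Ihh had about 140.0 in WT aged and about 342 in WT young, at −1.29 (SE 0.16) in the authors' deposited table. The co-receptor gene Cdon was at −0.68 (SE 0.08) and Hhip, which binds and holds the ligand, at −0.87 (SE 0.32) in the authors' deposited table. Ptch1 was at −0.46 (SE 0.08), Gli1 at −0.48 (SE 0.09) and Gli2 at −0.29 (SE 0.11) in the authors' deposited table. The pair of retinoid enzymes went opposite ways. Aldh1a2, which makes retinoic acid, had about 84.4 in WT aged and about 22.3 in WT young, at 1.92 (SE 0.40) in the authors' deposited table, and Cyp26b1, which degrades it, was at −0.92 (SE 0.29) there. Notch genes were called for 5 of 25 members, all lower, with a median of −0.30. Besides Dner, Hey1 and Heyl these were the DNA-binding partner gene Rbpj at −0.21 and the coactivator gene Maml2 at −0.19 in the authors' deposited table.

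**Figure D2:**
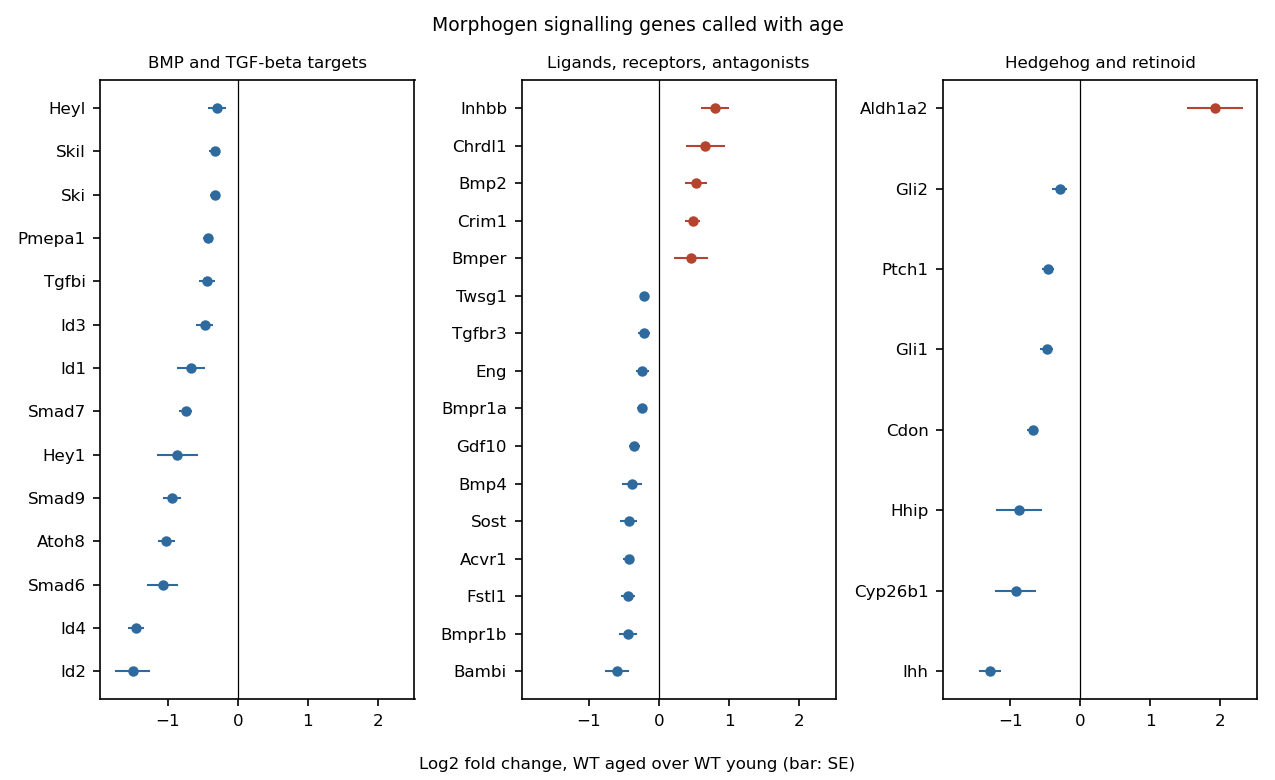
Log2 fold change of WT aged over WT young aorta (horizontal axis) for each called gene of 3 lists, with bars of 1 SE from the authors' deposited table, red for higher and blue for lower. The 14 BMP and TGF-beta target genes all lie below 0, the ligands and receptors lie on both sides, and Aldh1a2 is the 1 hedgehog or retinoid gene above 0.

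Wnt genes gave 18 of 62, with 7 higher and 11 lower and a median of −0.255, or 1.35 among members past 1 in either direction. The non-canonical ligand genes Wnt5b and Wnt5a were at −0.72 (SE 0.36) and −0.42 (SE 0.08) in the authors' deposited table, and Wnt9a at −0.33. Rspo1, an agonist that keeps Wnt receptors at the surface, had about 117 in WT aged and about 46.0 in WT young, at 1.35 (SE 0.32) in the authors' deposited table. Its receptor genes Lgr6 and Lgr4 were at −0.57 and −0.30 there, below 0 while their ligand rose, as also was Znrf3, the receptor-clearing ligase gene, at −0.21 in the authors' deposited table. Among frizzled receptors Fzd8 was at 0.84, Fzd2 at −0.31 and Fzd4 at −0.25 in the authors' deposited table. The secreted inhibitor genes Sfrp2 and Sfrp4 went opposite ways, at −0.62 (SE 0.08) and 0.51 (SE 0.31) in the authors' deposited table.

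Collagen genes moved in both directions, and more of those called fell. 20 of 44 were called, 6 higher and 14 lower, with a median of −0.35, or 1.97 among members past 1 in either direction. Col1a1 had about 71188 in WT aged and about 137526 in WT young, at −0.95 (SE 0.34) in the authors' deposited table, and Col1a2 had about 96923 in WT aged and about 161879 in WT young, at −0.74 (SE 0.21). Col6a1, Col6a2 and Col6a3, the 3 common chains of collagen VI, were at −0.56, −0.45 and −0.52 in the authors' deposited table, whereas their relative Col6a5 rose. The fibril-associated genes Col12a1 and Col14a1 were at −0.63 and −0.62, and Col5a1 and Col5a2, which set fibril width, at −0.23 and −0.31 in the authors' deposited table. The alternative chain Col5a3 was at 0.43 there. Basement membrane chains also split, with Col4a5 and Col4a6 both at −0.53, Col15a1 at −0.39 and Col18a1 at −0.28, and Col4a4 at 0.36 in the authors' deposited table. Col8a1, a short-chain collagen of vessels, had about 1766 in WT aged and about 451 in WT young, at 1.97 (SE 0.16) in the authors' deposited table (adjusted p = 1.21e-35). Col19a1 was at 1.00 (SE 0.17) and Col11a2 at 0.50 (SE 0.13) in the authors' deposited table.

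The machinery that folds, trims and crosslinks collagen also fell for most called members, 10 of 34 genes called with 9 lower and a median of −0.355. Pcolce2, which speeds the removal of the collagen propeptide, had about 1908 in WT aged and about 3842 in WT young, at −1.01 (SE 0.09) in the authors' deposited table. The protease that removes the other propeptide, Adamts2, was at −0.44 in the authors' deposited table. The chaperone genes Fkbp10 and Serpinh1 were at −0.46 and −0.23, the lysyl hydroxylase gene Plod2 at −0.30 and the crosslinking oxidase gene Loxl1 at −0.19 in the authors' deposited table. Sparc, a collagen-binding glycoprotein gene, had about 51202 in WT aged and about 94887 in WT young, at −0.89 (SE 0.23) in the authors' deposited table. The prolyl hydroxylase gene P3h2 was the member above 0, at 0.42 (SE 0.10) in the authors' deposited table. Of the elastic fibre genes 9 of 26 were called, 8 lower and 1 higher, with a median of −0.40. The microfibril genes Mfap5, Mfap4 and Mfap2 had the largest decreases, and Mfap5 had about 2647 in WT aged and about 6700.0 in WT young in the authors' deposited table (adjusted p = 9.87e-34). Thsd4, which aids microfibril assembly, was at −0.40, and the latent TGF-beta binding genes Ltbp3 and Ltbp4 were at −0.21 and −0.16 in the authors' deposited table. Efemp1, the fibulin-3 gene, rose at 0.48 (SE 0.19) in the authors' deposited table.

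Genes of proteoglycans and matricellular proteins were called for 23 of 64 members, 5 higher and 18 lower, median −0.33, or 0.68 past 1 in either direction. Perlecan (Hspg2) was at −0.29, biglycan (Bgn) at −0.28, fibromodulin (Fmod) at −0.66 and the nidogens Nid1 and Nid2 at −0.28 and −0.88 in the authors' deposited table. Agrin (Agrn) was at −0.44 and nephronectin (Npnt), a ligand of the integrin alpha 8, at −0.47 in the authors' deposited table. Above 0 stood the matricellular gene Ccn3, with about 44891 in WT aged and about 25428 in WT young, at 0.82 (SE 0.11) in the authors' deposited table, Hapln1, a link protein of hyaluronan, at 0.89 (SE 0.16), and tenascin C (Tnc) at 0.31 (SE 0.08). Of the basement membrane and integrin genes 12 of 39 were called, 2 higher and 10 lower, median −0.29. Integrin alpha 8 (Itga8), typical of smooth muscle, had about 137771 in WT aged and about 169616 in WT young, at −0.30 (SE 0.08) in the authors' deposited table. The integrin genes Itga4, Itgb3, Itgav and Itga5 were at −0.87, −0.41, −0.26 and −0.22, and Itga11 and Itgb8 at 0.33 and 0.42 in the authors' deposited table.

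Enzymes that build matrix sugars fell for most called members. 21 of 57 glycan-modifying genes were called, 3 higher and 18 lower, median −0.40. This list was set after values were seen, as were those of actin remodelling, caveolae, the IL-6 family, acute phase, the p200 family, ERK feedback, beta protocadherins, tendon and cartilage and the mitochondrial symbols, so their counts describe and support nothing. Galnt6 and B4galnt3 led them at −1.91 and −1.48 (SE 0.19) in the authors' deposited table. The chondroitin synthase genes Chsy1 and Chsy3 were at −0.67 (SE 0.07) and −0.63 (SE 0.12) and the chondroitin sulfotransferase genes Chst3 and Chst12 at −0.29 and −0.33 in the authors' deposited table. The heparan sulfate genes split, since the sulfotransferase gene Hs6st2 was at −1.01 (SE 0.26) and the sulfatase gene Sulf2 at −0.37, while the sulfatase gene Sulf1 was at 0.36 in the authors' deposited table. Matrix proteases and their inhibitors gave 20 of 60, 8 higher and 12 lower, median −0.27, or 1.12 past 1 in either direction. Adamts8 had about 3222 in WT aged and about 1472 in WT young, at 1.13 (SE 0.11) in the authors' deposited table, and Adamts15, which cleaves versican and aggrecan, was at 0.68 (SE 0.11). Adamts17 fell, with about 32.1 in WT aged and about 99.9 in WT young in the authors' deposited table. Of the inhibitors, Timp4 was at 0.87 (SE 0.19) and Serpina3n at 1.12 (SE 0.17), while Timp2 and Timp3 were at −0.30 and −0.27 in the authors' deposited table. The urokinase receptor gene Plaur was at −0.92 (SE 0.20) and the tissue plasminogen activator gene Plat at 0.29 in the authors' deposited table.

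**Figure D3:**
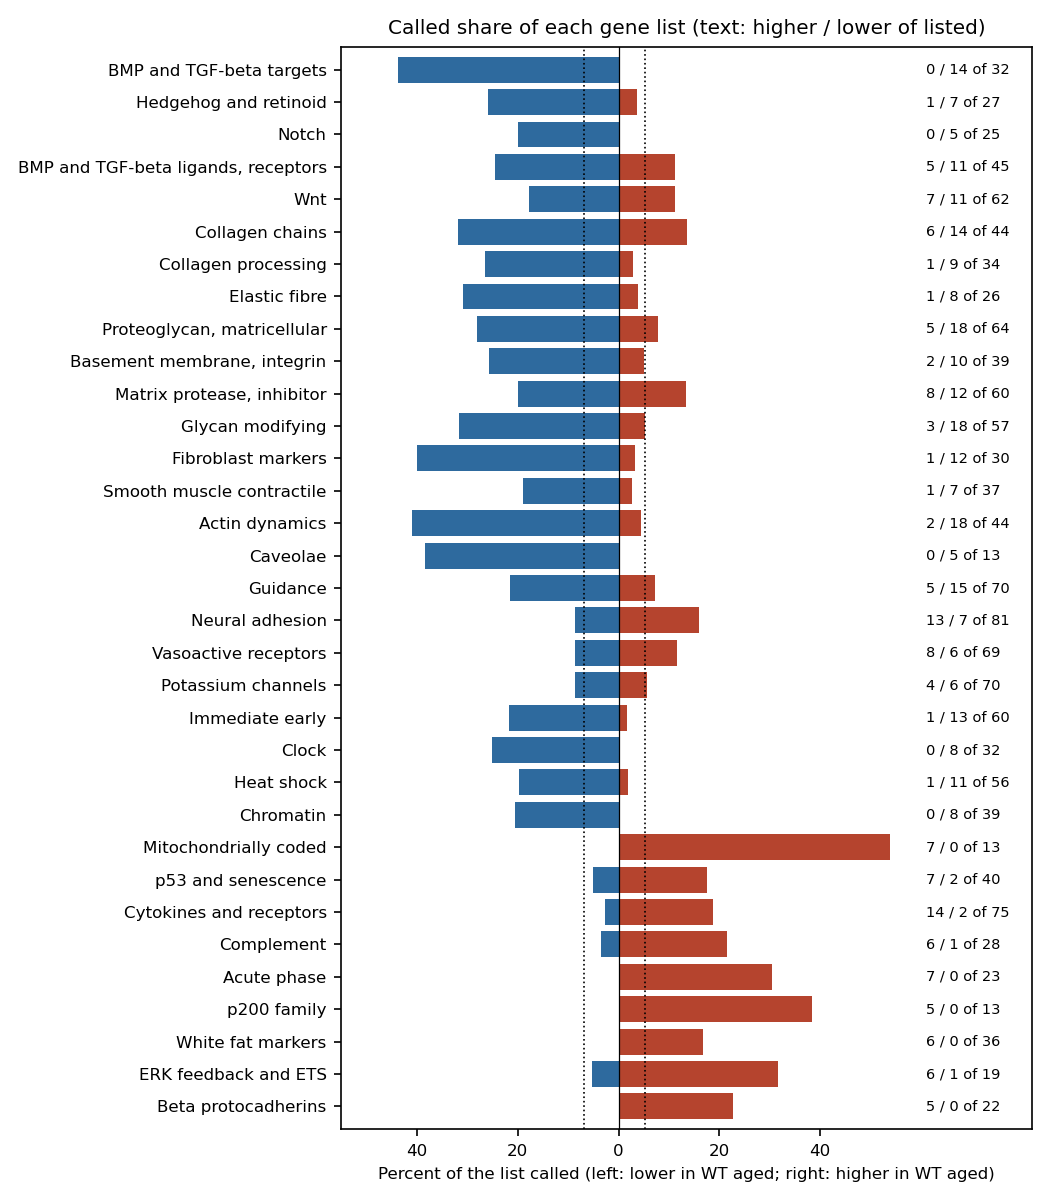
Share of each of 33 gene lists called higher (right, red) or lower (left, blue) in WT aged than in WT young aorta, in percent of the list's genes, with counts at the right and dotted lines at the background of 5.26% higher and 6.76% lower. The matrix, actin and morphogen lists extend to the left, and the mitochondrially coded, complement, acute phase and p200 lists to the right.

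Cell type markers were set beside these lists. Of 30 fibroblast and adventitial markers 13 were called, 1 higher and 12 lower, median −0.47; Col1a1, Col1a2, Mfap5, Pcolce2, Fbln1, Postn, Tnxb and Sfrp2 are also on the lists above. The part that a lower share of fibroblasts has in the lower matrix genes was not tested. The defining smooth muscle genes Acta2, Myh11, Tagln and Cnn1, the endothelial genes Pecam1 and Cdh5 and the fat genes Adipoq and Plin1 were not listed, and their levels were not analysed here. The fibroblast genes Pdgfra, Dcn and Lum were not listed either, while the fibroblast gene Pi16 was lower, at −0.28 in the authors' deposited table. Of 37 smooth muscle contractile genes 8 were called, 1 higher and 7 lower, median −0.295. Actg2, the gamma smooth muscle actin gene, had about 3326 in WT aged and about 6381 in WT young, at −0.94 (SE 0.10) in the authors' deposited table. Hspb6, a small heat shock protein of smooth muscle, was at −0.67 (SE 0.10), and the transcription factor gene Srf and its coactivator gene Mrtfb at −0.29 and −0.26 in the authors' deposited table. Desmin (Des) rose, at 0.39 (SE 0.12) in the authors' deposited table. Actin-remodelling genes outside that list gave 20 of 44, 2 higher and 18 lower, median −0.275. Evl, of the actin-polymerising Ena/VASP family, was at −1.10 (SE 0.25), calponin 3 (Cnn3) at −0.71 (SE 0.11), and the Arp2/3 and capping genes Actr3, Arpc2, Arpc5, Capza1, Capza2 and Capzb between −0.32 and −0.20 in the authors' deposited table. Caveola coat genes were called for 5 of 13 members, all lower, with Cav1 at −0.47 (SE 0.08), Cav2 at −0.36 (SE 0.09) and Cav3 at −0.48 (SE 0.13) in the authors' deposited table.

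Striated muscle genes were called for 5 of 42 members, all lower, a share near the 12.0% of all tested genes, with Actc1 the largest and Myh6 at −0.09 in the authors' deposited table, a strongly shrunken value. White fat markers gave 6 of 36 (16.7%), all higher, median 0.73, led by the elongase gene Elovl6 at 1.06 (SE 0.60) and adipsin (Cfd) at 0.89 (SE 0.35) in the authors' deposited table. Of 40 macrophage markers 8 were called (20%), 5 higher and 3 lower, including Spp1, Mpeg1 at 0.45, Mertk at 0.45 and Lgals3 at −0.40 in the authors' deposited table. Endothelial markers gave 5 of 40, 12.5% of the list and near the 12.0% of all tested genes. Of these 2 were higher and 3 lower, median −0.21 but 0.42 at an adjusted p under 0.01, with Flt1 at 0.31 and Esam at −0.32 in the authors' deposited table. The lymphatic, B cell and erythroid or platelet lists had no called gene.

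Some mitochondrially coded genes rose. Of 13 protein-coding genes of the mitochondrial genome 7 were called, all higher, with a median of 0.59. The complex I genes ND2, ND3, ND5 and ND6 were at 0.59 (SE 0.12), 0.62 (SE 0.19), 0.62 (SE 0.12) and 0.46 (SE 0.11) in the authors' deposited table. COX1, a catalytic subunit of complex IV, had about 287093 in WT aged and about 208713 in WT young, at 0.46 (SE 0.21) in the authors' deposited table (adjusted p = 0.0252). CYTB, of complex III, had about 66081 in WT aged and about 47708 in WT young, at 0.47 (SE 0.22) in the authors' deposited table, and COX3 had about 118 in WT aged and about 46.1 in WT young, at 1.36 (SE 0.30). Mitochondrial genes have near-identical nuclear copies and lie close together, and how shared reads were counted is not given in the sources used here, so these values are uncertain, those of ND3 and COX3 at low counts the more so. Among 80 nuclear-coded genes of oxidative phosphorylation 1 was called, Atp5mg at 0.41 (SE 0.14) in the authors' deposited table. No mitochondrially coded gene was listed in KO ageing.

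Among genes of the p53 response, most of those called rose. p53 is activated by DNA damage and stress and induces genes that halt the cell cycle. 9 of 40 genes of the p53 and senescence list were called, 7 higher and 2 lower, median 0.49. Cdkn1a, which encodes the cell cycle inhibitor p21, had about 735 in WT aged and about 416 in WT young, at 0.82 (SE 0.14) in the authors' deposited table. Ptchd4 had about 282 in WT aged and about 63.9 in WT young, at 2.14 (SE 0.30) in the authors' deposited table. Eda2r, a p53-induced receptor of the TNF family, had about 437 in WT aged and about 222 in WT young, at 0.98 (SE 0.18) in the authors' deposited table, and Psrc1 was at 1.23 (SE 0.31). The apoptosis-enhancing nuclease gene Aen, Phlda3 and the cyclin G1 gene Ccng1 were at 0.49 (SE 0.16), 0.31 (SE 0.11) and 0.21 (SE 0.08) in the authors' deposited table. The other inhibitor gene Cdkn1b, encoding p27, was at −0.35 (SE 0.08), and Igfbp7 at −0.22 (SE 0.07) in the authors' deposited table. Cell cycle genes gave 6 of 74, 8.11% of the list and below the 12.0% of all tested genes, 4 higher and 2 lower, with Ccnd1 at 0.31 and Ccnd2 at −0.37 in the authors' deposited table.

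Most called inflammatory genes rose. Cytokines, chemokines and their receptors gave 16 of 75, 14 higher and 2 lower, median 0.575. Within the IL-6 family 4 receptor genes rose, with Il6ra at 1.06 (SE 0.16), Lepr at 1.02 (SE 0.12), Osmr at 0.56 (SE 0.11) and Lifr at 0.44 (SE 0.10) in the authors' deposited table. Il6ra had about 829 in WT aged and about 398 in WT young in the authors' deposited table. The shared signalling subunit Il6st (gp130) fell, with about 13926 in WT aged and about 17627 in WT young in the authors' deposited table, at −0.34 (SE 0.07), and so did the ligand gene Clcf1 and the feedback inhibitor gene Socs3, at −0.43 and −0.37 there. The interleukin 11 receptor gene Il11ra1 was at −0.19 in the authors' deposited table. Together 8 of 20 IL-6 family genes were called, 4 higher and 4 lower, median 0.125, or −0.19 over genes that are on no other list. Tnfrsf11b, encoding the decoy receptor osteoprotegerin, had about 3934 in WT aged and about 1298 in WT young, at 1.60 (SE 0.44) in the authors' deposited table. The CSF1 receptor ligand gene Il34 was at 0.84 (SE 0.35), the alarmin gene Il33 at 0.49 (SE 0.22) and the chemokine genes Ccl9, Ccl6 and Cx3cl1 at 0.68, 0.67 and 0.59 in the authors' deposited table. Complement genes gave 7 of 28, 6 higher and 1 lower, median 0.46. C4b had about 4484 in WT aged and about 1979 in WT young, at 1.18 (SE 0.10) in the authors' deposited table, and C3 had about 18432 in WT aged and about 9946 in WT young, at 0.89 (SE 0.27). Acute phase genes, which share C3, C4b and Cfb with that list, gave 7 of 23, all higher, median 0.84, with ceruloplasmin (Cp) at 0.66 (SE 0.11) and the lipopolysaccharide-binding protein gene Lbp at 0.53 (SE 0.18) in the authors' deposited table.

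Of the interferon-inducible p200 family, cytosolic and nuclear DNA-binding proteins, 5 of 13 genes were called and all were higher, median 0.61. Ifi205 had about 84.2 in WT aged and about 20.5 in WT young, at 2.04 (SE 0.42) in the authors' deposited table, and Ifi207, Ifi204, Ifi203 and Mndal were at 0.72 (SE 0.19), 0.61 (SE 0.29), 0.55 (SE 0.15) and 0.52 (SE 0.18). These genes are closely related neighbours that can share reads, so their single values are uncertain. The wider interferon response list gave 2 of 60, below the 12.0% of all tested genes.

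Genes induced by ERK signalling, ETS factors and feedback inhibitors among them, rose for 6 of 7 called. Etv4, Etv5 and Etv1, ETS factors induced by fibroblast growth factor signals, were at 1.47 (SE 0.42), 0.76 (SE 0.15) and 0.35 (SE 0.10) in the authors' deposited table. The inhibitor genes Spry4 and Spry1, which the same signals induce, were at 0.71 (SE 0.11) and 0.50 (SE 0.19) in the authors' deposited table. Etv5 had about 777 in WT aged and about 459 in WT young in the authors' deposited table. 7 of 19 genes of this list were called, 6 higher and 1 lower, median 0.50, the lower one being the ERK phosphatase gene Dusp5 at −0.87 (SE 0.38) in the authors' deposited table. In the growth factor list 10 of 65 were called, near the background share, 7 higher and 3 lower, with Fgf1 at 0.55 (SE 0.11) and Egfr at 0.27 above and Pdgfrb, the receptor typical of mural cells, at −0.54 (SE 0.08) in the authors' deposited table. In the insulin-like growth factor list 10 of 27 were called, 6 higher and 4 lower, with the growth hormone receptor gene Ghr at 0.71 (SE 0.12), the binding protein protease gene Pappa2 at 1.01 (SE 0.27) and the RNA-binding gene Igf2bp2 at −1.45 (SE 0.27) in the authors' deposited table.

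A few genes on none of the lists, chosen after their values were seen, also rose. Pgr, the progesterone receptor gene, had about 2707 in WT aged and about 1774 in WT young, at 0.61 (SE 0.11) in the authors' deposited table. The estrogen receptor gene Esr1 was at 0.22 (SE 0.09) and the hydroxysteroid dehydrogenase gene Akr1c14 at 1.35 (SE 0.14) in the authors' deposited table.

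**Figure D4:**
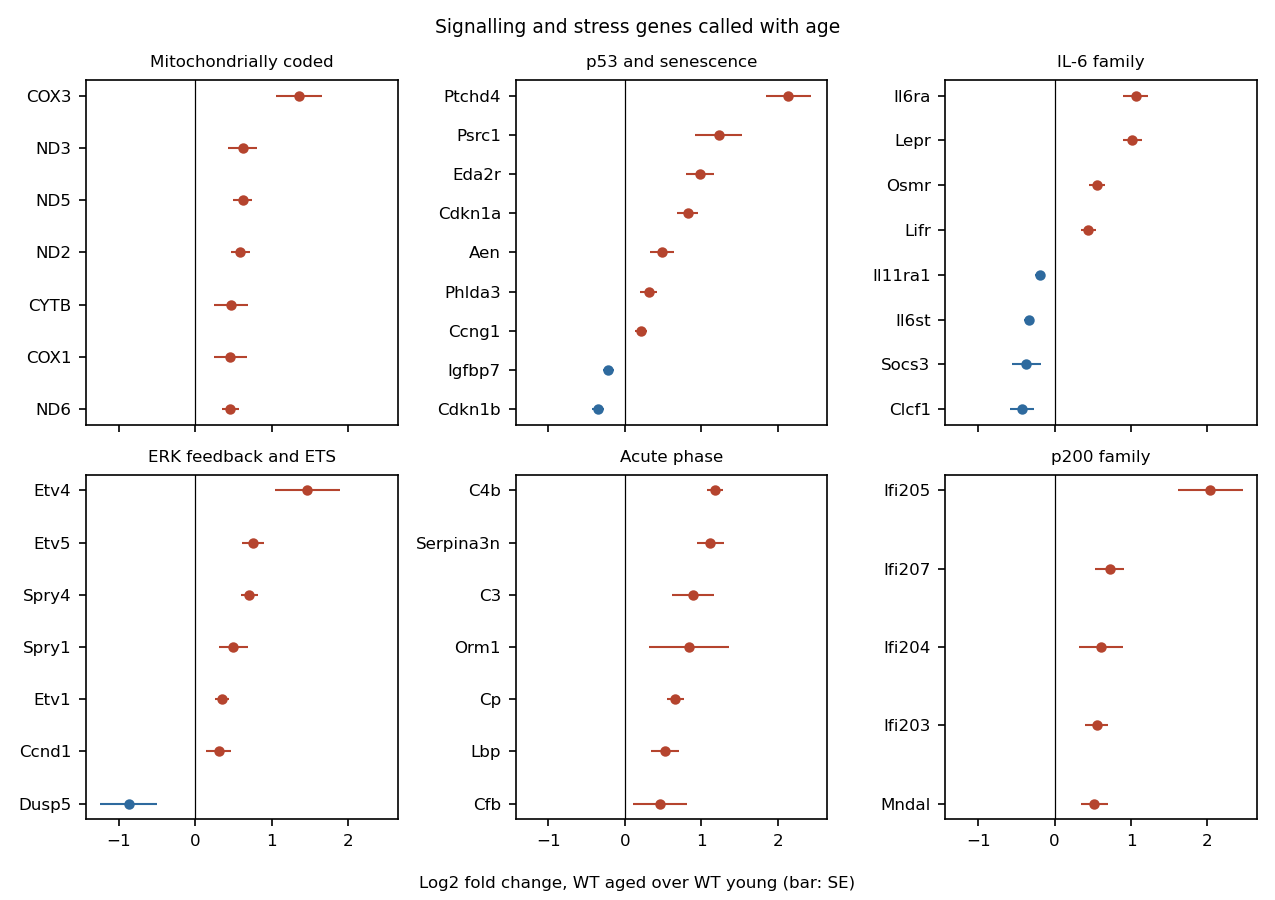
Log2 fold change of WT aged over WT young aorta (horizontal axis) for each called gene of 6 lists, with bars of 1 SE from the authors' deposited table, red for higher and blue for lower. The called mitochondrially coded, acute phase and p200 genes all lie above 0, and in the IL-6 family the 4 higher genes all encode receptors.

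Receptor genes of vasoactive hormones moved in both directions. 14 of 69 were called, 8 higher and 6 lower, median 0.35. Oxtr had about 194 in WT aged and about 42.8 in WT young in the authors' deposited table. S1pr3, a sphingosine 1-phosphate receptor gene, had about 236 in WT aged and about 85.9 in WT young, at 1.46 (SE 0.23) in the authors' deposited table. The vasopressin receptor gene Avpr1a, the angiotensin receptor gene Agtr1b and the prostaglandin receptor gene Ptger3 were at 1.01 (SE 0.43), 0.98 (SE 0.26) and 1.02 (SE 0.18) in the authors' deposited table. The alpha-1 adrenoceptor genes went opposite ways, Adra1a at 0.69 (SE 0.21) and Adra1d at −0.84 (SE 0.16) in the authors' deposited table. Vipr2, for vasoactive intestinal peptide, and Bdkrb2, for bradykinin, were at −0.56 (SE 0.17) and −0.40 (SE 0.20) in the authors' deposited table.

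Potassium channel genes were called at about the background share. They gave 10 of 70, 4 higher and 6 lower, median −0.29, or 1.20 past 1 in either direction. Both parts of the ATP-sensitive channel, the pore gene Kcnj11 and the sulfonylurea receptor gene Abcc8, fell, at −0.93 (SE 0.25) and −1.36 (SE 0.49) in the authors' deposited table, as did the vascular pore gene Kcnj8 at −0.27 (SE 0.11). Above 0 were Kcnj12 at 1.54 (SE 0.36), Kcnt1 at 1.52 (SE 0.30) and Kcnk1 at 1.20 (SE 0.35) in the authors' deposited table. Of the calcium clearance genes 5 of 21 were called (23.8%), 4 lower and 1 higher. Slc8a3 was at −0.79 (SE 0.24), Atp2b4 at −0.45 (SE 0.08), Atp2a2 at −0.32 (SE 0.08) and Atp2a3 at 0.32 (SE 0.13) in the authors' deposited table. Calcium entry and release genes gave 5 of 48, 10.4% of the list against the 12.0% of all tested genes, 2 higher and 3 lower, median −0.29 but 0.12 at an adjusted p under 0.01, with the mechanosensitive channel gene Piezo2 at 0.61 (SE 0.17) in the authors' deposited table.

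Guidance and adhesion genes moved in both directions within each list, in differing proportions. Guidance genes gave 20 of 70, 5 higher and 15 lower, median −0.41, or 0.335 past 1 in either direction. Sema3e, a semaphorin that repels endothelial cells, had about 1489 in WT aged and about 385 in WT young, at 1.95 (SE 0.17) in the authors' deposited table. The Eph receptor genes Ephb1, Ephb3, Epha4 and Ephb4 were at −1.28, −0.79, −0.54 and −0.24, and Efnb2, the arterial ephrin gene, at −0.45 in the authors' deposited table. Slit2 and its receptor gene Robo1 were at −0.35 and −0.44, and the netrin receptor genes Unc5b and Neo1 at −0.92 and −0.60 in the authors' deposited table. Neural adhesion and synapse genes gave 20 of 81, 13 higher and 7 lower, median 0.405, including Ncam2 at 2.13 (SE 0.30), Cntnap4 at 1.91 (SE 0.38) and the teneurin gene Tenm4 at 1.16 (SE 0.18) above and Nlgn1 at −0.95 (SE 0.47) below in the authors' deposited table. The Schwann cell and neuronal marker list had 1 called gene, Pmp22, which was lower at −0.54 in the authors' deposited table. Classical and atypical cadherins gave 12 of 35, 6 higher and 6 lower, median 0.05, or −0.70 past 0.5 in either direction. 3 of the 6 higher ones were the protocadherin genes Pcdh1, Pcdh11x and Pcdh19. N-cadherin (Cdh2) was at −0.86 (SE 0.22) and Dchs1, an atypical cadherin of planar polarity, at −1.05 (SE 0.10), against cadherin 11 (Cdh11) at 0.36 (SE 0.14) and Fat1 at 0.28 (SE 0.07) in the authors' deposited table. Each of the 8 called protocadherins, those 3 included, was higher, with Pcdhb11 at 1.61 (SE 0.27), Pcdhb8 at 1.38 (SE 0.36) and Pcdhb7 at 1.23 (SE 0.37) in the authors' deposited table. How many protocadherin genes were tested was not analysed here. The clustered Pcdhb genes are close copies, so how reads were shared among them is uncertain.

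Called rapid-response and clock genes were mostly lower. Immediate early genes gave 14 of 60, 1 higher and 13 lower, median −0.515, with Jun at −1.02 (SE 0.33), Apold1 at −1.54 (SE 0.36), Nr4a1 at −0.68 (SE 0.41) and Dusp1 at −0.47 (SE 0.60) in the authors' deposited table. Of the 14, 7 were strongly shrunken (Atf3, Ccn1 at −0.10, Dusp1, Dusp5, Nr4a1, Nr4a3 at −0.23 and Socs3 in the authors' deposited table). Clock genes gave 8 of 32, all lower, median −0.46. Hlf and Tef, output factors of the clock, were at −0.91 (SE 0.27) and −0.27 (SE 0.10), the deadenylase gene Noct at −0.75 (SE 0.21) and the repressor gene Cry2 at −0.34 (SE 0.11) in the authors' deposited table. The sources used here give neither hour of sampling nor handling time. Promoter stretches of a gene from each list are shown, because they hold elements that rapid and clock signals are known to use, with capitals on a cAMP response element, TGACGTCA, in Dusp1 and an E-box, CACGTG, in Bhlhe41 (RefSeq, GRCm38.p6).
Dusp1, chr17:26508568-26508655, minus strand: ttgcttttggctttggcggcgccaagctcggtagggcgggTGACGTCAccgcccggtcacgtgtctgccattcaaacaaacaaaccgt
Bhlhe41, chr6:145865528-145865613, minus strand: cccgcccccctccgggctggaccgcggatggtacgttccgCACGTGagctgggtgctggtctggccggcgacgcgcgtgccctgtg
Of all windows 1.79% held TGACGTCA and 7.15% held CACGTG, each its own reverse complement. Of the windows of lower immediate early genes, 1 of 13 held the first, and of those of lower clock genes 3 of 9 held the second. These 3 windows belong to 2 of 8 lower clock genes, Bhlhe41 and Tef.

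Glucocorticoid-responsive genes gave 11 of 32, 9 higher and 2 lower, median 0.60, including Fkbp5 at 1.06 (SE 0.39), Hif3a at 1.37 (SE 0.14) and Klf15 at 0.55 (SE 0.10) in the authors' deposited table. The receptor gene Nr3c1 was at −0.22 (SE 0.07) there. Heat shock and protein folding genes gave 12 of 56, 1 higher and 11 lower, median −0.305. The co-chaperone genes Dnaja1 and Bag3 were at −0.71 (SE 0.13) and −0.32 (SE 0.13) in the authors' deposited table, and Hspa1a and Hspa1b, near-identical copies with strongly shrunken values, both at −0.05. Cholesterol synthesis genes gave 7 of 37, 1 higher and 6 lower, median −0.30, or 1.05 past 0.5 in either direction, with the synthase gene Hmgcs1 at −0.28 (SE 0.13) in the authors' deposited table. Antioxidant and detoxification genes gave 12 of 81, near the background share, 4 higher and 8 lower, with Gpx1 at −0.51 (SE 0.12) and the extracellular superoxide dismutase gene Sod3 at −0.29 (SE 0.08) in the authors' deposited table.

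Chromatin regulators gave 8 of 39, all lower, median −0.40. Tet1, an enzyme that oxidises methylated cytosine, had about 1403 in WT aged and about 2945 in WT young, at −1.07 (SE 0.14) in the authors' deposited table. Smarca1, a nucleosome remodeller, was at −1.03 (SE 0.15), the polycomb methyltransferase gene Ezh2 at −0.60 (SE 0.18) and its partner gene Suz12 at −0.19 in the authors' deposited table. The demethylase gene Kdm6b, whose product removes the mark that Ezh2 writes, was at −0.58 (SE 0.12) in the authors' deposited table. Imprinted genes gave 7 of 30, 1 higher and 6 lower, median −0.51; Asb4 alone lay past 1 in either direction. Meg3, a maternally expressed long non-coding RNA of the Dlk1-Dio3 cluster, had about 3987 in WT aged and about 7755 in WT young, at −0.96 (SE 0.08) in the authors' deposited table (adjusted p = 2.01e-31). Mirg and Rtl1 of the same cluster were at −0.83 (SE 0.21) and −0.57 (SE 0.20) in the authors' deposited table. Rtl1 is overlapped by an antisense transcript, and the strand setting of the counting is not given in the sources used here. Plagl1, Peg3 and Gnas were at −0.51, −0.26 and −0.25, and Asb4 rose, at 2.02 (SE 0.36) in the authors' deposited table.

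Genes of calcified and cartilage-like tissue moved in both directions. 9 of 42 genes of the osteochondrogenic list were called, 6 higher and 3 lower. Besides Spp1, Tnfrsf11b and Bmp2, Sox6 was at 0.60 (SE 0.12) in the authors' deposited table. The cartilage master regulator gene Sox9 fell, with about 122 in WT aged and about 229.5 in WT young in the authors' deposited table, at −0.91 (SE 0.23), and Alpl, which clears the mineralisation inhibitor pyrophosphate, was at −0.95 (SE 0.21). Tendon and cartilage genes gave 7 of 16, 4 higher and 3 lower, Sox9 among the lower ones. Cilp2 was at −1.64 (SE 0.30) and fibromodulin (Fmod) at −0.66 (SE 0.12), whereas Tnmd was at 1.95 (SE 0.24), the tendon factor gene Mkx at 1.14 (SE 0.24) and the lubricin gene Prg4 at 1.31 (SE 0.28) in the authors' deposited table.

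The ageing effect in WT aorta was set against that in KO aorta, which rests on 10 other libraries and shares none with it. In KO ageing 2083 of 14477 tested genes were called, a background of 14.4% (7.71% higher and 6.68% lower in KO aged aorta). Of the WT genes 438 were called in KO ageing too, which is 25.3% of the WT list and 21.0% of the KO list. In 361 of the 438 the directions were equal, 148 higher and 213 lower in both, and in 77 they were opposite. A Wald test of the WT effect minus the KO effect, two-sided, with Benjamini-Hochberg adjustment over the 438 genes, called 131 different, 53 with the WT effect above and 78 with it below that in KO. At an unadjusted p under 0.05 there were 150. Opposite effects that each passed a test nearly fix the outcome of this one, so that 76 of the 77 opposite genes are among the 131 is no further result. The gene of the 77 outside the 131 was Myoz2, at −0.43 in WT ageing and 0.48 in KO ageing in the authors' deposited tables (adjusted p of the Wald difference = 0.15). The remaining 55 had equal directions, and the WT effect was the larger in 42 of them. The 1290 genes called in WT ageing and not in KO ageing could not be tested for a difference.

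Genes with opposite ageing effects came from several classes. Their Wald values below describe the size of the difference only, since being called in both comparisons nearly fixed the outcome of that test. Ifnlr1, a subunit of the interferon lambda receptor, was at 0.89 (SE 0.22) in WT ageing and −0.91 (SE 0.23) in KO ageing in the authors' deposited tables, a difference of 1.80 (SE 0.31, adjusted p = 3.23e-07) by the Wald test. Arhgap26, a GTPase-activating protein gene, was at 0.81 (SE 0.15) in WT ageing and −0.61 (SE 0.14) in KO ageing in the authors' deposited tables. The BMP receptor gene Bmpr1b was at −0.44 (SE 0.13) in WT ageing and 0.51 (SE 0.08) in KO ageing there, a Wald difference of −0.95 (SE 0.15, adjusted p = 1.27e-08). Inhbb and Chrdl1 turned the other way, at 0.80 and 0.66 in WT ageing and −0.30 and −0.36 in KO ageing in the authors' deposited tables. The clock genes Bhlhe41, Noct, Nr1d2, Tef and Usp2 all fell in WT ageing and rose in KO ageing, Bhlhe41 with a Wald difference of −1.07 (SE 0.16, adjusted p = 1.01e-09). So did, from the heat shock and protein folding list, Hspb7, Bag3, Dnaja4, Herpud1 and Hsp90ab1. Pcdhb6 and Pcdhb16 rose in WT ageing and fell in KO ageing, with Wald differences of 1.72 (SE 0.58, adjusted p = 0.0121) and 0.59 (SE 0.18, adjusted p = 0.00425). The KO value of Pcdhb6 was strongly shrunken, and its mean normalized count in the WT comparison was 37.5. All 7 protocadherin genes called in KO ageing were lower there. The zinc finger genes Zfp386, Zfp810 and Zfp608 rose in WT ageing and fell in KO ageing. Over the family with the prefix Zfp, 20 were higher and 7 lower in WT ageing, and 18 higher and 30 lower in KO ageing. How many protocadherin or Zfp genes were tested was not analysed here, so no share stands beside these counts. Whether they differ between genotypes was not tested. The row Mir143, which counts reads over the gene of a smooth muscle microRNA and not its mature form, was at 1.14 (SE 0.26) in WT ageing and −0.81 (SE 0.38) in KO ageing in the authors' deposited tables, a Wald difference of 1.95 (SE 0.46, adjusted p = 0.00021). The KO value of Mir143 was strongly shrunken too. The ribosomal rows Rpl10-ps3 and Rps27rt were also opposite, and as close copies of other genes they can share reads, so their values are uncertain.

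**Figure D5:**
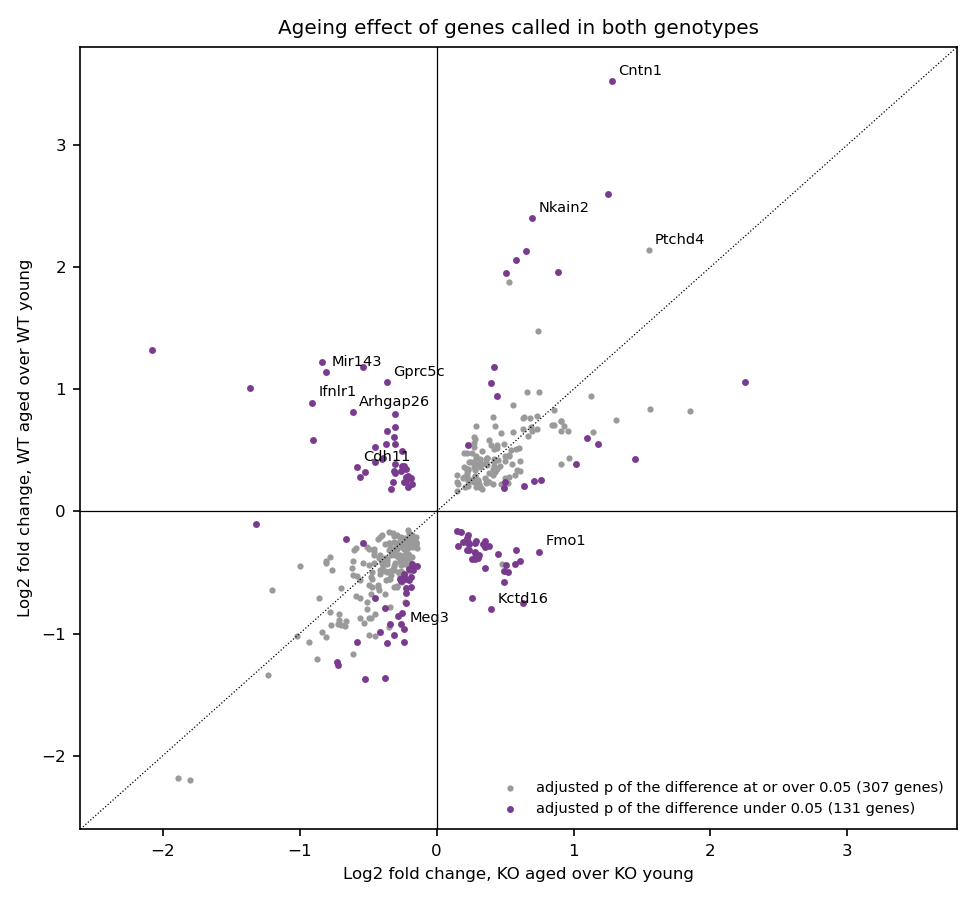
Log2 fold change with age in WT aorta (vertical axis) against that in KO aorta (horizontal axis) for the 438 genes called in both, purple where the difference had an adjusted p under 0.05 (131 genes) and grey elsewhere, with a dotted line of equal effects. Most points lie in the quadrants of equal direction, and 77 lie in the other two.

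Among genes of equal direction several changed more in WT aorta. Cntn1 was at 3.52 (SE 0.25) in WT ageing and 1.28 (SE 0.55) in KO ageing in the authors' deposited tables, a Wald difference of 2.24 (SE 0.61, adjusted p = 0.00142). The KO value of Cntn1 was strongly shrunken, and the part of unequal shrinkage in this difference was not tested. Nkain2 was at 2.40 (SE 0.21) in WT ageing and 0.70 (SE 0.24) in KO ageing in the authors' deposited tables, a Wald difference of 1.70 (SE 0.32, adjusted p = 1.7e-06). Meg3 was at −0.96 (SE 0.08) in WT ageing and −0.24 (SE 0.09) in KO ageing in the authors' deposited tables, a Wald difference of −0.72 (SE 0.12, adjusted p = 2.03e-07). Smad6 was at −1.07 (SE 0.22) in WT ageing and −0.24 (SE 0.11) in KO ageing in the authors' deposited tables, a Wald difference of −0.83 (SE 0.25, adjusted p = 0.00422). Ptchd4 was at 2.14 (SE 0.30) in WT ageing and 1.55 (SE 0.23) in KO ageing in the authors' deposited tables, and the Wald difference of 0.59 (SE 0.37, adjusted p = 0.28) missed the threshold, which does not show that the effects are alike. Of the BMP and TGF-beta target list 7 genes were called in KO ageing, 1 higher and 6 lower, against 14 called and all lower in WT ageing. Collagens gave 9 called in KO ageing, 1 higher and 8 lower. Whether these counts differ between genotypes was not tested, since genes called in 1 genotype have no value in the other.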

How the data were processed

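RNA sequencing was done on 20 libraries of female mouse aorta, 5 per group, each of 2 pooled mice, using a low-input stranded kit, per the labels' protocols. The submitters' processing notes name DESeq2 1.42.1, MultiQC 1.25.1, Subread 2.0.8 with featureCounts, STAR 2.7.11b and the build GRCm39; their roles and settings were not given in the sources used here. Each called gene has 1 row, in which the authors deposited, per the file headers, the log2 fold change, its SE (treated as a score), the mean normalized count as a pooled signal, and the raw and adjusted p-value. The number tested was recovered as adjusted over raw p in the first row, and the last row's rank equalled the row count, so each table holds all genes under 0.05. Depth per library is unknown, and no model was refitted.

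The headers do not state direction. Read with WT aged as the positive side, the WT aged means shared with another deposited table differed by a median of 0.0286 (log2), against at least 0.185 for other readings. Fold change over SE was a median of 0.858 of the z the p-value implies, which marks shrinkage. Group means follow from mean and fold change. The p-values weigh the difference between groups against the spread between pools.

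Lists numbered 72 with 2583 genes, of which 524 were called; 9 lists (IL-6 family, ERK feedback, beta protocadherin, p200, caveola, acute phase, tendon and cartilage, glycan-modifying, actin) and the symbols of the mitochondrial list were set after values were seen, so their counts support nothing, and all members and lists were chosen with earlier results of these data known. Lists are described by counts and medians of called genes, with no test. Named genes were Slc24a4, the 12 largest increases and decreases at a mean count of at least 50, the 10 smallest adjusted p and highest means per direction, up to 12 called genes a list or prefix family (beyond 12, the 8 with the smallest adjusted p and the 4 with the largest change), the 10 per direction with the smallest adjusted p of the WT to KO difference, every opposite gene and the 3 largest adjusted p; the text gives a selection of these, others were chosen after their values were seen, and some items are not reported here. That difference was scaled by its SE, taken as the square root of both squared SEs added, and compared with a normal distribution, a test checked on simulated data. The simulated effects were neither shrunken nor limited to genes called in both comparisons, so the check does not cover those conditions. RefSeq matched 1706 of 1728 symbols, and 1281 had a promoter window. Software was matplotlib 3.10.9, SciPy 1.17.1, pandas 2.3.3, NumPy 2.4.6 and Python 3.11.15.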

Additional observations from a re-analysis of the deposited data

Results flagged for a closer look

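The ageing effect differed between WT and KO aorta for 131 of the 438 genes called in both comparisons (Wald test, Benjamini-Hochberg adjusted over 438). Of the 131, 76 had opposite directions, for which being called in both comparisons nearly fixes the outcome, so they are no further result. All genes named below except Nkain2 and Meg3 are of that kind. The 10 with the smallest adjusted p and the WT effect above the KO effect had these differences of log2 fold change, WT minus KO, from the authors' deposited tables: Arhgap26 (1.42), Cd200 (0.61), Fgf1 (0.85), Ifnlr1 (1.80), Zfp386 (0.99), Cdh11 (0.94), Ndrg1 (0.92), Nkain2 (1.70), Zfp810 (0.69), Gprc5c (1.42). The 10 with the WT effect below the KO effect were Fibin (−0.98), Bhlhe41 (−1.07), Cnn3 (−0.97), Kctd16 (−1.20), Hspb7 (−0.66), Bmpr1b (−0.95), Fmo1 (−1.08), Meg3 (−0.72), Cys1 (−1.02), Herpud1 (−0.64). Fgf1, an acidic fibroblast growth factor gene, was at 0.55 in WT ageing and −0.30 in KO ageing in the authors' deposited tables. Cd200, a surface ligand that restrains macrophages, was at 0.37 in WT ageing and −0.24 in KO ageing in the authors' deposited tables. Fmo1, a flavin monooxygenase gene, was at −0.33 in WT ageing and 0.75 in KO ageing in the authors' deposited tables. Each difference rests on 5 pools a group and on the SEs of shrunken fold changes.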

How the results depend on the processing

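At an adjusted p under 0.01 there were 430 higher and 620 lower genes in WT aged aorta, in place of 756 and 972. With fold changes of 0.5 or more in absolute log2, there were 343 higher and 295 lower, and at 1 there were 114 and 65, so the majority turned to increases at either minimum. A mean count of at least 50 left 731 higher and 958 lower, and leaving out strongly shrunken genes left 635 and 895. The count of genes whose ageing effect differed between WT and KO, 131, was 147 with the SE implied by the p-value, 103 at an adjusted p under 0.01 and 129 at a mean count of at least 50. Of 528 single genes followed, 394 stayed under 0.01 and 485 were not strongly shrunken. Above an absolute log2 fold change minimum of 0.5, the median log2 fold change changed sign in these lists of called genes: endothelial 0.53, matrix protease 0.605, BMP and TGF-beta ligand and receptor 0.595, Wnt 0.51, cadherin −0.70, calcium entry 0.53, potassium channel 0.135, sodium and chloride channel 1.66, nitric oxide and cGMP 0.52, fatty acid oxidation −1.0, cholesterol 1.05, Hippo −0.54. Above a minimum of 1, the median log2 fold change changed sign in these lists of called genes: collagen 1.97, proteoglycan 0.68, matrix protease 1.12, Wnt 1.35, hedgehog and retinoid 0.315, guidance 0.335, potassium channel 1.20, sodium and chloride channel 1.66, fatty acid oxidation −1.0, cholesterol 1.05, imprinted 2.02. At an adjusted p under 0.01, the median log2 fold change changed sign in these lists of called genes: endothelial 0.42, calcium entry 0.12, sodium and chloride channel 1.66, Hippo −0.03. At a mean count of at least 50, that median changed sign for the Hippo list, to −0.10. With genes on 1 list only, the median log2 fold change changed sign in these lists of called genes: mesothelial −0.10, Hippo −0.18, IL-6 family −0.19. Without strongly shrunken genes, that median changed sign for the Hippo list, to −0.18. These lists hold called genes of both signs, and fewer of them enter at each minimum. No paired analysis was possible because the tables hold no values per library, and for the same reason no replicate could be left out and no normalization or count filter could be changed. Library depth is unknown, so the SE is the measure of each value's precision.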

Other observations

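Some families were counted by symbol, whether or not their genes are also on a list. How many genes of each family were tested was not analysed here, so no share stands beside these counts. Solute carriers with the prefix Slc were lower for 20 of 25 called in WT aged aorta, median −0.27, while in KO ageing 24 were higher and 20 lower. Of the amino acid carrier genes of the SLC38 family, Slc38a1 was at −0.89 (SE 0.10), Slc38a4 at −1.19 (SE 0.28) and Slc38a3 at −0.87 (SE 0.31) in the authors' deposited table. Slc38a1 had about 951 in WT aged and about 1762 in WT young in the authors' deposited table. The choline carrier-like genes Slc44a1 and Slc44a2 were at −0.30 (SE 0.07) and −0.51 (SE 0.09) in the authors' deposited table. Cytosolic ribosomal protein genes gave 9 called, all lower, median −0.23, and 2 called in KO ageing, both higher. These counts leave out copies such as Rpl10-ps3 and Rps27rt, which went the other way in the authors' deposited tables. They were at 1.32 and 1.01 in WT ageing and at −2.08 and −1.36 in KO ageing. The ribosomal and translation list gave 3 of 53, 5.66% and below the 12.0% of all tested genes, with Rpl5 at −0.28 and Rps12 at −0.22 in the authors' deposited table. Such genes have many processed copies that can share reads, so their values are uncertain. GTPase-activating protein genes with the prefix Arhgap were higher for 5 of 6 called, with Arhgap27 at 1.48 (SE 0.27) and Arhgap36 at 1.36 (SE 0.46) in the authors' deposited table.

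Smaller lists moved both ways. Nitric oxide and cGMP genes gave 9 of 29, 2 higher and 7 lower, median −0.36, or 0.52 past 0.5 in either direction, with the soluble guanylate cyclase gene Gucy1b1 at −0.22 (SE 0.07) in the authors' deposited table. Sodium and chloride channel genes gave 5 of 46, 10.9% of the list against the 12.0% of all tested genes, 2 higher and 3 lower, median −0.22 but 1.66 at an adjusted p under 0.01, with Scn3a at 1.18 (SE 0.21) in the authors' deposited table. Hippo and mechanosensing genes gave 6 of 26, 3 higher and 3 lower, median 0.04, which turned to −0.03 at an adjusted p under 0.01. The TEAD factor genes Tead4 and Tead2 were at 1.00 (SE 0.48) and −0.54 (SE 0.18) in the authors' deposited table. Tead4 had a mean count under 50 and was strongly shrunken. Genes of fatty acid breakdown and the citric acid cycle gave 4 of 42, 9.52% of the list and below the 12.0% of all tested genes. Of these 3 were higher and 1 lower, median 0.23 but −1.0 past 0.5 in either direction. Mesothelial markers gave 3 of 15, 2 higher and 1 lower, median 0.92 but −0.10 over genes on no other list. Gpm6a was at 0.92 (SE 0.28) and Krt18 at −1.12 (SE 0.23) in the authors' deposited table.

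Non-coding genes were divided. Of 76 called long non-coding RNA genes 38 were higher and 38 lower in WT aged aorta. Neat1, the scaffold RNA of paraspeckles, had about 69495 in WT aged and about 82644 in WT young, at −0.25 (SE 0.08) in the authors' deposited table. Dnm3os, a host transcript of microRNAs, was at 0.62 (SE 0.14) and the neuronal RNA gene Bc1 at 0.41 (SE 0.09) in the authors' deposited table. Snora23 and Snord17, small nucleolar RNA genes, were at 0.53 (SE 0.17) and 0.41 (SE 0.14) in the authors' deposited table. The host gene of a small RNA can share its reads.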
